A study of Mus musculus with 14 samples.

Results

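The Hox genes were taken as every gene on the array whose symbol is Hoxa, Hoxb, Hoxc or Hoxd followed by digits, which gave 38 of 19532 named genes. Of these, 37 encode homeodomain proteins and 1, Hoxd3os1, is a transcript antisense to the cluster and is described apart. Expression had been measured on 14 two-colour arrays, with the RNA of a sample in Cy5 set against a universal mouse reference in Cy3. Skin came from 4-week-old female mice, 4 of them WT and 4 carrying Tsk2, a mutation that causes tight, fibrotic skin and that the series title places in the PIIINP segment of Col3a1, the gene of the type III collagen chain. Fibroblasts came from Col3a1 knockout mice, the same in both fibroblast groups, and had been transfected with either the WT or the Tsk2 form of Col3a1, with 3 arrays for each form. The comparisons asked how the Hox genes differed between skin and the transfected fibroblasts, and between Tsk2 and WT within each. Fibroblast and skin RNA had been extracted with different kits, so that the kit, the culture, the Col3a1 knockout and the mixture of cells in skin cannot be told apart in the comparison of skin with fibroblasts. Whether the fibroblast samples were grown as separate cultures is not stated, so their p-values may measure technical spread alone, and the body site of the skin and of the fibroblasts is not given in the sources used here.

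Hox proteins are transcription factors that give cells their position along the head-to-tail axis and along the limbs. In mammals they lie in 4 clusters, and the genes with the lowest paralog numbers act in the hindbrain and neck while those with higher numbers act in the thorax, the lower trunk, the limbs and the tail. Cultured fibroblasts are known to keep the Hox pattern of the site they came from, and Hoxc13 has a separate role in the hair follicle, where it is needed for the keratins of the hair shaft. In a reference table of assembly GRCm38.p6 the clusters lie on mouse chromosomes 6 (Hoxa), 11 (Hoxb), 15 (Hoxc) and 2 (Hoxd).

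The Hoxa cluster held genes that were clearly higher and a gene that was clearly lower in skin, and the promoters of these 4 genes are shown because such neighbours share 1 chromosome segment. Each sequence holds the 250 bases before the gene's start in RefSeq (GRCm38.p6), 5′ to 3′ on the gene's strand. Capitals mark TAAT or its complement ATTA, the core of many homeodomain binding sites.
Hoxa2, chr6:52164832-52165081, minus strand: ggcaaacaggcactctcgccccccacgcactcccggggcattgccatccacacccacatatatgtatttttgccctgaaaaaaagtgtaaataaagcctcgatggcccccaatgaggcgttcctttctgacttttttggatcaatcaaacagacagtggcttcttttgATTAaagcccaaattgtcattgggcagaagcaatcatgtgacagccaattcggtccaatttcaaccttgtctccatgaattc
Hoxa5, chr6:52204588-52204837, minus strand: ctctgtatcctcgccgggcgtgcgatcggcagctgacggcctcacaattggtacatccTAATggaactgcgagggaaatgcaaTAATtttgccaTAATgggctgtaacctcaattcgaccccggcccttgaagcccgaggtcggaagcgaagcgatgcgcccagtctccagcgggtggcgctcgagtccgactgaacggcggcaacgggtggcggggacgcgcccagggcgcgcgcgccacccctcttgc
Hoxa7, chr6:52218574-52218823, minus strand: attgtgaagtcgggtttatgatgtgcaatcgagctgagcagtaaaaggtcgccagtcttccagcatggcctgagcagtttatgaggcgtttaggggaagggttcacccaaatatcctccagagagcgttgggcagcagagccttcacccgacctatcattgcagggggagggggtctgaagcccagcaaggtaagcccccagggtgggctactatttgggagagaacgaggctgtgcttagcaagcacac
Hoxa11, chr6:52245811-52246060, minus strand: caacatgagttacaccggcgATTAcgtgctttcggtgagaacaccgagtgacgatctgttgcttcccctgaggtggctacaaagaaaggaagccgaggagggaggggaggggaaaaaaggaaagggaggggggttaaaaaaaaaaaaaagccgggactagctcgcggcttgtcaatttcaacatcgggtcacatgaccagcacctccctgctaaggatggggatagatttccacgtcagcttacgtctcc
TAAT on either strand occurred 1 time before Hoxa2, 3 times before Hoxa5, 0 times before Hoxa7 and 1 time before Hoxa11, and 54.9% of 32851 promoters of the same length held it. CCAAT, the core of a common promoter element, occurred on either strand 4 times before Hoxa2 and 1 time before Hoxa5, against 33.8% of promoters with a match, and was not in the other two windows. TGATNNAT, a site for Hox proteins with a Pbx cofactor, occurred before Hoxa2 alone among these windows, and 7.68% of all promoters held it. The windows held 6, 28, 7 and 13 CpG dinucleotides in the order printed, against a median of 6 over all promoters. Of the 37 coding Hox genes, 22 had a promoter in the table used.

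Expression is given throughout as the log2 ratio of a sample over that reference, so the value of a gene depends on how much of its RNA the reference holds, and the levels of different genes are not comparable. Brightness was not used here, and the number of arrays limits the precision. The 37 coding genes were measured by 49 probes, and 26 genes rested on 1 probe. Of 686 probe values 41 were at exactly 0, spread over 13 genes, and 14 of these were in WT skin replicate 2, an array on which 30.1% of all probes were at 0. A further sign of dim probes was a value that occurred at least 50 times on its array. Such repeated values made up 230 of the 686, over 50% of the values of 9 genes (Hoxa3, Hoxa6, Hoxa13, Hoxc12, Hoxd1, Hoxd3, Hoxd11, Hoxd12 and Hoxd13), and every value of Hoxd1, Hoxd11 and Hoxd12. Of all probes on an array, 33.8% to 46.7% were at repeated values, so such values were not particular to the Hox probes. Hoxd11 was at exactly 0 on 8 of 14 arrays. No value was repeated for 13 genes, among them Hoxa5, Hoxa7, Hoxa11, Hoxb2, Hoxb7, Hoxb9 and Hoxc9.

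As a check of the samples, a list of 12 keratinocyte genes averaged between 3.94 and 5.18 in skin and between -0.28 and 0.02 in fibroblasts. The mean of 11 fibroblast genes was 1.03 to 1.12 in WT fibroblasts, 1.35 to 1.52 in Tsk2 fibroblasts and 1.49 to 2.60 in skin. Of these 11 genes, 7 had a higher mean in skin and 4 a lower one. Col3a1 itself lay between -2.39 and -2.20 in the fibroblasts and between 1.14 and 2.58 in skin. Where the Col3a1 probes lie relative to the deleted part or to the transfected sequence is not known here, so this value does not check the labels of the transfections. In such bulk RNA, fewer cells of a type and less RNA per cell cannot be told apart.

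In skin, the Hox genes differed from the fibroblasts in both directions, also within the paralog groups 1 to 8. Hoxa2, Hoxa5 and Hoxa7 were 3.60-fold to 4.04-fold higher in skin, and Hoxc6, Hoxc8, Hoxc9, Hoxc10, Hoxb9 and Hoxa11 were 1.97-fold to 26.6-fold lower. By limma with Benjamini-Hochberg adjustment over all genes at 0.05, 18 of 37 coding Hox genes passed, 10 higher and 8 lower in skin. Of all genes 54.1% passed, 29.2% higher and 24.9% lower, so the share of Hox genes that passed, 48.6%, was near that of the array as a whole. At an unadjusted p under 0.05 there were 19 of 37 Hox genes, 51.4%, against 58.3% of all genes. The skin arrays did not overlap the fibroblast arrays for 3 Hox genes that were higher and 6 that were lower, 24.3% of the 37, against 32.7% of all genes (17.9% higher, 14.9% lower). The median difference of the 37 was -0.14, and that of all genes was -0.00. Quantile normalization between arrays also gave 18 calls but split them into 7 higher and 11 lower. Under it Hoxb2 and Hoxb8 no longer passed, Hoxb4 and Hoxd10 passed as lower, and Hoxd4 changed sign.

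**Figure D1:**
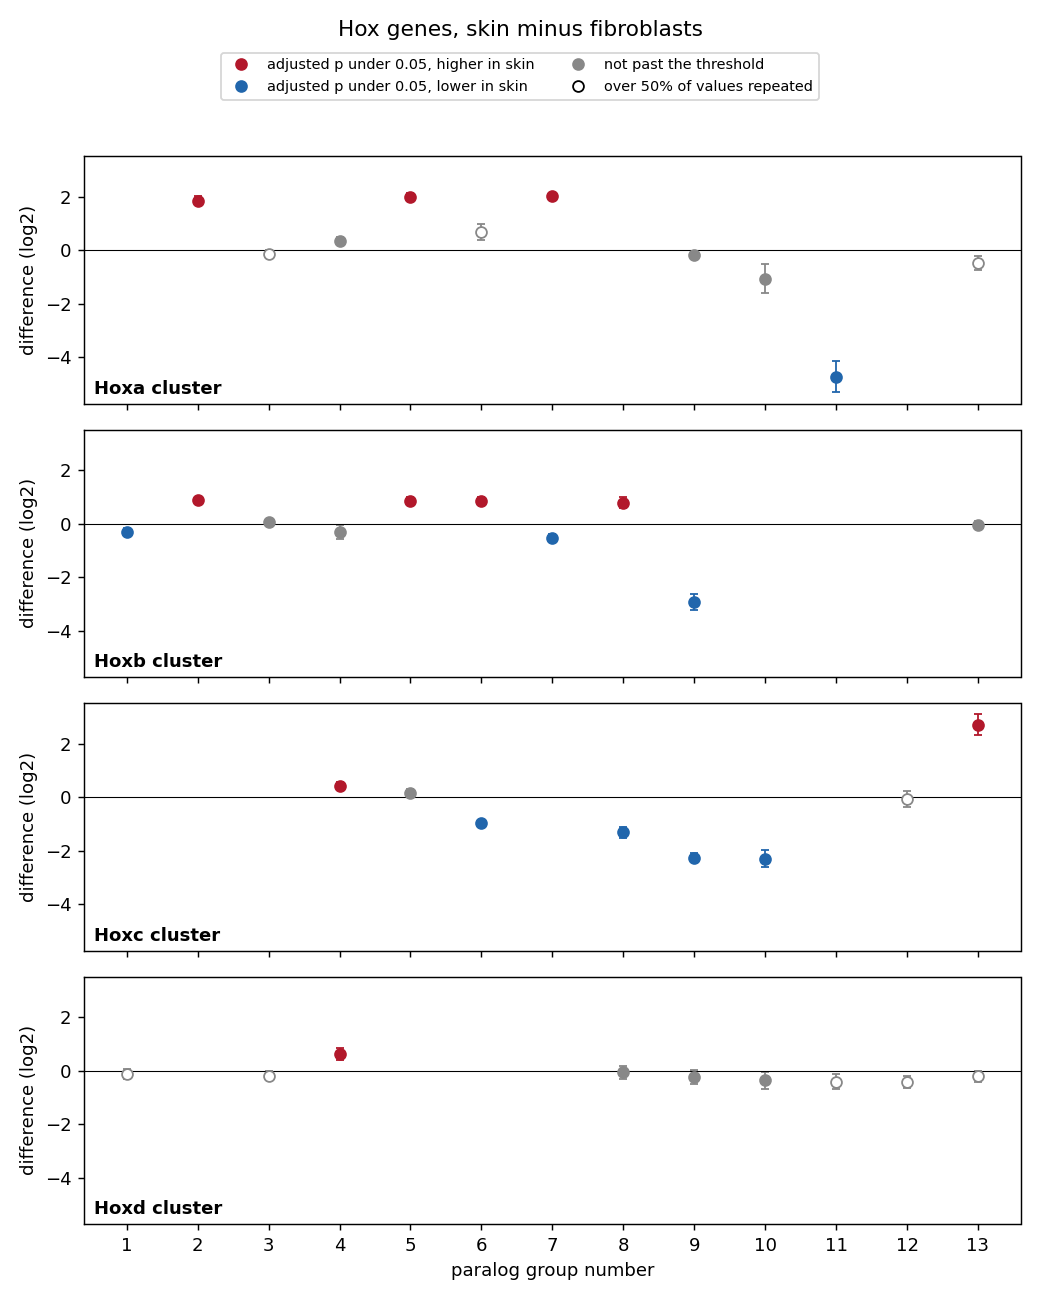
Difference between skin and fibroblasts (log2, mean of both skin groups minus mean of both fibroblast groups) for each coding Hox gene, by cluster (panels) and paralog number (horizontal axis). Bars show ± 1 SE from limma, red and blue points passed an adjusted p of 0.05, and open points have over 50% of their values repeated. Hoxa11, Hoxb9, Hoxc9 and Hoxc10 lie at -4.73 to -2.26, and Hoxc13 at 2.70 stands on the other side of 0 from the other genes of groups 9 to 13.

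By paralog number, 9 of the 22 genes of groups 1 to 8 were higher in skin and 4 lower, with a median difference of 0.23. In groups 9 to 11, the thoracic to limb genes, 0 of 9 genes were higher and 4 were lower, all 9 differences were negative, and the median was -1.07. In groups 12 and 13, 1 of 6 genes passed, Hoxc13, which was higher. The shares that passed were 59.1% in groups 1 to 8, 44.4% in groups 9 to 11 and 16.7% in groups 12 and 13. Of all genes 54.1% passed, 29.2% higher and 24.9% lower. Of the 9 genes of groups 9 to 11, 5 did not pass, and of these Hoxd11 had only repeated values. These counts describe the members and were not tested as a trend.

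Among the genes of the lower paralog numbers, Hoxa2, which patterns the hindbrain and the second pharyngeal arch, was at -1.95, -2.16 and -1.84 in WT fibroblasts and -1.67, -1.84 and -1.52 in Tsk2 fibroblasts. It was at 0.08, -0.28, -0.22 and 0.50 in WT skin and 0.24, -0.57, 0.53 and -0.16 in Tsk2 skin. Every skin array was above every fibroblast array, and the genotypes overlapped within skin. The difference was 1.85 ± 0.18 (SE, 14 arrays; limma adjusted p = 1.19e-06).

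Hoxa5, a gene of the neck and upper thorax that is also needed in the lung, was at -0.25, -0.41 and -0.35 in WT and -0.54, -0.21 and -0.27 in Tsk2 fibroblasts. Skin gave 1.67, 1.38, 1.61 and 1.77 in WT and 2.04, 1.29, 1.90 and 1.67 in Tsk2 mice. The lowest skin array was thus more than 1 unit above the highest fibroblast array. The difference was 1.9995 ± 0.12 (SE, limma adjusted p = 1.71e-08).

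Hoxa7, a thoracic gene, was at -0.02, 0.11 and 0.38 in WT and 0.20, 0.11 and 0.20 in Tsk2 fibroblasts. It was at 2.19, 1.97, 1.96 and 2.40 in WT skin and 2.47, 2.53, 2.01 and 1.88 in Tsk2 skin. All 8 skin arrays were well above the fibroblasts, by 2.01 ± 0.13 (SE, limma adjusted p = 2.57e-08). Between Hoxa5 and Hoxa7 lies Hoxa6, whose difference of 0.68 did not pass (limma adjusted p = 0.0848) and of whose 14 values 13 were repeated ones.

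Of the Hoxb cluster, 4 genes were higher in skin with overlapping arrays. Hoxb2 was higher by 0.87, Hoxb5 by 0.85, Hoxb6 by 0.85 and Hoxb8 by 0.78 (limma adjusted p from 2.69e-05 to 0.00683). The 2 probes of Hoxb8 disagreed, with differences of 1.89 and -0.33, and on the second 12 of 14 values were repeated ones. In the Tsk2 groups alone none of these 4 passed, and Hoxb8 was at -0.16. Hoxb7 was lower in skin by 0.53 (adjusted p = 0.00563), a difference that was -0.14 (adjusted p = 0.395) in the WT groups alone. Hoxb1 was lower by 0.30 (limma adjusted p = 0.0474) and passed in 8 of 23 other settings.

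Hoxc4 was higher in skin by 0.43 (limma adjusted p = 0.013) and Hoxd4 by 0.61 (adjusted p = 0.0344). The difference of Hoxd4 turned to -0.58 (adjusted p = 0.0217) under quantile normalization, and the gene passed in 14 of 23 other settings, that one included. It was the only Hoxd gene of 9 past the threshold, and 5 of the 9 are among the genes with mostly repeated values.

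From Hoxc6 to Hoxc10 the Hoxc cluster was lower in skin. Hoxc6 was at 1.17, 1.19 and 1.31 in WT fibroblasts and at 1.57, 1.30 and 1.23 in Tsk2 fibroblasts. In skin it was at 0.05, 0.02, -0.14 and 0.66 in WT and 0.42, 0.23, 0.54 and 0.75 in Tsk2 mice. All skin arrays were below all fibroblast arrays, by 0.98 on average (difference -0.98 ± 0.13 SE, limma adjusted p = 3.06e-05).

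Hoxc8, a thoracic gene, was at 1.82, 1.53 and 1.39 in WT and 2.38, 1.67 and 1.71 in Tsk2 fibroblasts. Skin gave 0.20, 0.60, -0.37 and 0.88 in WT and 0.40, 0.30, 1.13 and 0.31 in Tsk2 mice. The highest skin array, from a Tsk2 mouse, came close to the lowest fibroblast array without reaching it. The difference was -1.32 ± 0.21 (SE, limma adjusted p = 0.000137).

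Hoxc9, which acts in the thorax, was at 0.62, 0.54 and 0.53 in WT and 0.34, 0.56 and 0.55 in Tsk2 fibroblasts. It was at -2.11, -1.91, -2.03 and -1.03 in WT skin and -1.30, -1.93, -1.89 and -1.69 in Tsk2 skin. The fibroblast arrays were all above 0 and the skin arrays all below -1. The difference was -2.26 ± 0.17 (SE, limma adjusted p = 1.01e-07).

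Hoxc10, a gene of the lumbar region and the hindlimb, was at -0.01, 0.17 and -0.05 in WT and 0.61, 0.58 and 0.55 in Tsk2 fibroblasts. Skin gave -1.45, -2.01, -2.24 and -1.78 in WT and -3.55, -1.22, -1.29 and -2.42 in Tsk2 mice. Here the Tsk2 mice spread over more than 2 units while the fibroblast groups were tight. The difference was -2.31 ± 0.31 (SE, limma adjusted p = 2.80e-05). The 2 probes of Hoxc10 gave -3.14 and -1.48, and on the second 4 of 14 values were repeated ones. In WT skin replicate 2, 1 of the 2 probes was at exactly 0.

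Hoxb9, a thoracic gene at the posterior end of its cluster's main block, was at 1.91, 1.70 and 1.69 in WT and 2.32, 2.07 and 1.90 in Tsk2 fibroblasts. It was at -0.81, -0.03, -1.47 and 0.87 in WT skin and -1.64, -1.29, -2.21 and -1.53 in Tsk2 skin. The skin values lay below those of the fibroblasts in every mouse, by 2.94 on average (difference -2.94 ± 0.30 SE, limma adjusted p = 1.88e-06).

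Hoxa11, which shapes the forearm and lower leg and the uterus, was at -0.54, -0.31 and -0.19 in WT and -0.04, -0.59 and -0.22 in Tsk2 fibroblasts. It was at -4.49, -8.27, -4.21 and -5.79 in WT skin and -5.48, -2.88, -4.11 and -5.15 in Tsk2 skin. This was the widest difference of the 37, at -4.73 ± 0.59 (SE, limma adjusted p = 1.28e-05). None of the 14 values was a repeated one. Hoxa10 next to it was lower by 1.07 and did not pass (adjusted p = 0.126), with WT skin replicate 2 at exactly 0 and the other WT skin arrays between -4.58 and -2.57. With values at exactly 0 taken as missing, Hoxa10 was at -1.52 (limma adjusted p = 0.000779).

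**Figure D2:**
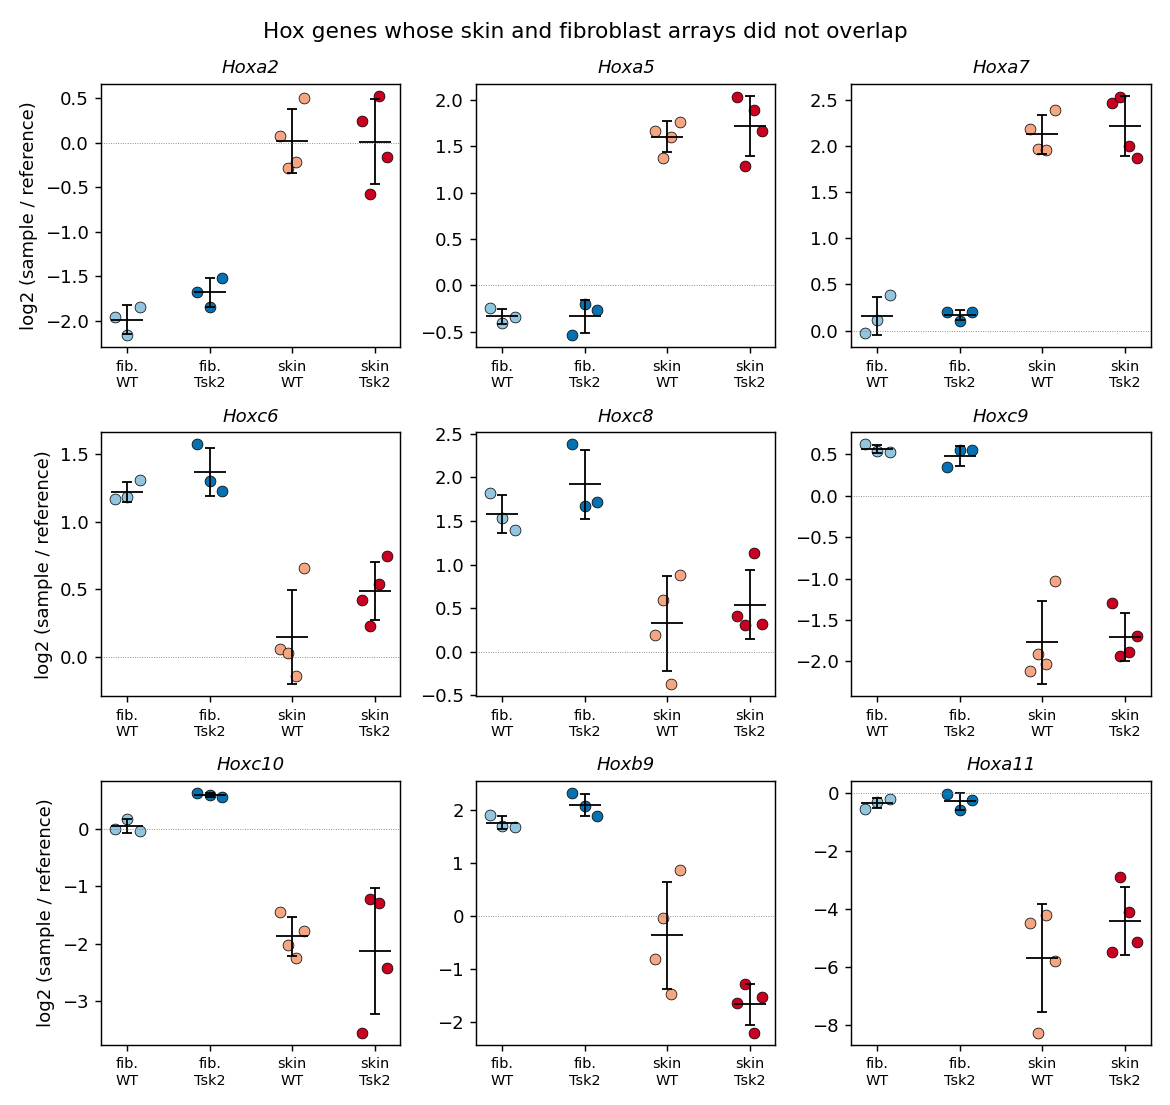
Log2 ratio to the reference on each array for the 9 Hox genes whose skin and fibroblast arrays did not overlap, with the mean and SD of each group (fib., transfected fibroblasts, 3 arrays per group; skin, 4 mice per group). The vertical axes differ between panels. Hoxa2, Hoxa5 and Hoxa7 are higher on all 8 skin arrays, and the other 6 genes are lower on all of them.

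Hoxc13 departed from the other genes of high paralog number. It was at -2.05, -0.86 and -1.55 in WT fibroblasts, -0.20, -1.63 and -0.37 in Tsk2 fibroblasts, 3.12, 2.70, 3.14 and 2.04 in WT skin, and 1.49, -0.76, 1.27 and -0.30 in Tsk2 skin. The WT mice were above all other arrays, and 2 Tsk2 mice lay within the range of the fibroblasts. Skin was higher by 2.70 ± 0.39 (SE, limma adjusted p = 5.74e-05), by 4.24 in the WT groups alone and by 1.16 in the Tsk2 groups alone (adjusted p = 0.18, not past the threshold). Across the skin arrays a list of 23 hair follicle and hair shaft genes, 22 of which were higher in skin than in fibroblasts, moved with it, as described below.

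The other 19 coding Hox genes did not pass, with differences from -1.07 (Hoxa10) to 0.68 (Hoxa6). They hold all 9 genes with mostly repeated values, for which 0 of 9 passed. Of the rest, Hoxa4 was at 0.32 (adjusted p = 0.0888), and its probe without repeated values gave 0.52 (limma adjusted p = 0.00723). Hoxb13, a gene of the tail end of the body, was below 0 on all 14 arrays, between -2.49 and -1.39, and its skin and fibroblast arrays overlapped (difference -0.05 ± 0.16 SE, adjusted p = 0.818). The antisense transcript Hoxd3os1 lay between -0.53 and 0.67 on all arrays (difference -0.01, adjusted p = 0.975).

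In Tsk2 skin compared with WT skin, 0 of 37 coding Hox genes passed the threshold by limma, against 2.91% of all genes (1.91% higher, 0.998% lower). At an unadjusted p under 0.05 there were 14 of 37 Hox genes, 37.8%, against 23.1% of all genes. Hoxc13, Hoxb2 and Hoxb7 had the lowest p. For 9 Hox genes every Tsk2 mouse was below every WT mouse, and for 0 genes every Tsk2 mouse was above; of all genes, 6.75% were lower and 9.33% higher without overlap. The 9 were Hoxb2, Hoxb3, Hoxb4, Hoxb5, Hoxb6, Hoxb7, Hoxb8, Hoxc13 and Hoxd10.

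Hoxc13 had a mean of 2.75 ± 0.51 (SD, n = 4) in WT skin and 0.43 ± 1.12 (SD, n = 4) in Tsk2 skin. The difference was -2.32 ± 0.53 (SE, a 5.01-fold lower ratio), and its limma adjusted p of 0.0539 did not pass. All 4 Tsk2 mice, at the values given above, were below the lowest WT mouse. The adjusted p ranged from 0.0122 to 0.152 over 15 other settings and passed in 6 of them. It was 0.0322 without WT skin replicate 4 and 0.0459 without Tsk2 skin replicate 1.

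The mean over the 23 hair genes was 5.39, 5.37, 5.31 and 3.69 in the WT mice and 3.11, 0.59, 1.97 and 0.51 in the Tsk2 mice. All 23 differences were negative and 11 passed the threshold, such as Krt34 at -5.35 (limma adjusted p = 0.0229) and Krt26 at -6.46 (adjusted p = 0.0229), keratins of the hair shaft and of the inner root sheath. In skin only Dsg4, on the array of WT replicate 2, was at exactly 0 among the hair genes. WT replicate 4 was the lowest WT mouse for both Hoxc13 and the hair genes, and Tsk2 replicates 2 and 4 were the lowest of all for both. The part of the hair genes in the values of Hoxc13 was not tested.

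**Figure D3:**
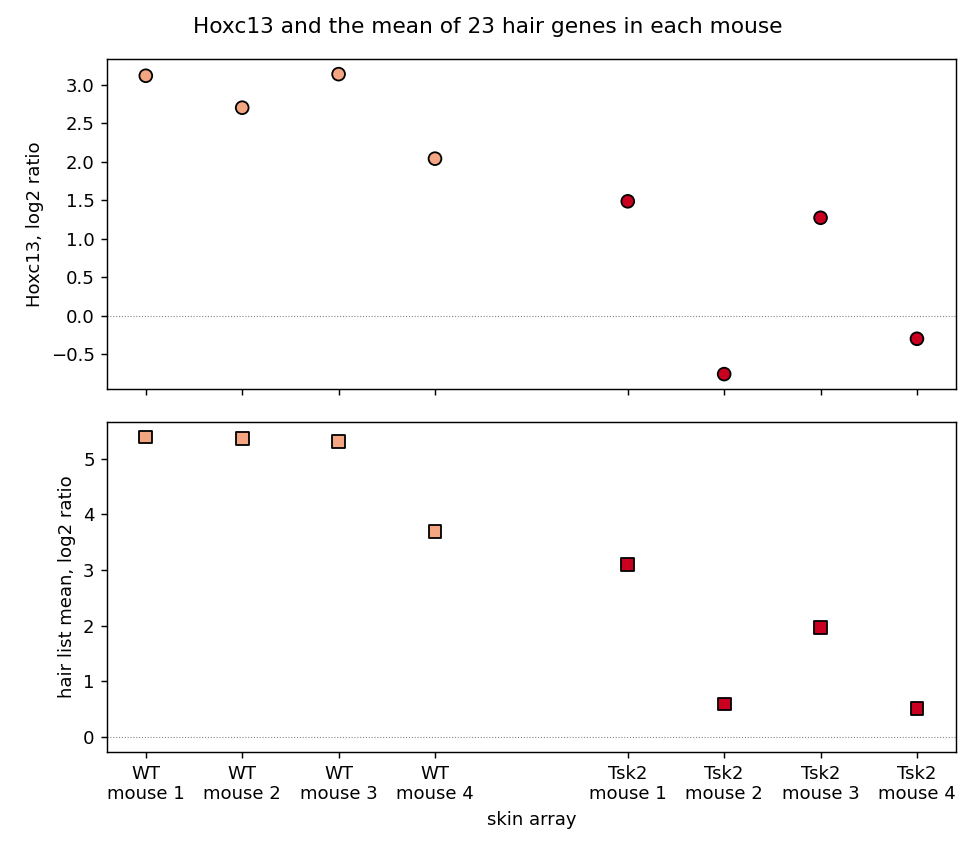
Hoxc13 (upper panel) and the mean of 23 hair follicle and hair shaft genes (lower panel) in the skin of each mouse, both as log2 ratios to the reference. Each point is 1 array, and the dotted line marks 0. The WT mice lie between 2.04 and 3.14 for Hoxc13 and between 3.69 and 5.39 for the hair genes, above every Tsk2 mouse in both panels.

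All 10 measured Hoxb genes had lower means in Tsk2 skin, with a median difference of -0.74 and a range from -1.30 to -0.05, while 0 of 10 passed the threshold. The median over all genes was 0.03. For 7 of the 10 the genotypes did not overlap, all 7 with the Tsk2 mice lower. Of all genes, 6.75% were lower and 9.33% higher without overlap. Hoxb2, a hindbrain gene, was at 2.84, 2.58, 2.67 and 2.52 in WT skin and 2.27, 1.66, 2.01 and 1.58 in Tsk2 skin. The difference was -0.78 ± 0.19 (SE, limma adjusted p = 0.062). Hoxb7 was at 1.70, 1.64, 1.67 and 1.76 in WT skin, close together, and at 1.28, 0.92, 0.98 and 0.22 in Tsk2 skin. The Tsk2 mice were thus both lower and more variable, with a difference of -0.84 ± 0.22 (SE, limma adjusted p = 0.0749).

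Hoxb3 differed by -0.71, Hoxb5 by -0.62, Hoxb6 by -0.62 and Hoxb8 by -0.96 (limma adjusted p from 0.0781 to 0.113). On the probe of Hoxb8 without repeated values in skin the WT mice were at 3.83, 6.44, 3.66 and 4.44 and the Tsk2 mice at 2.99, 1.79, 2.44 and 1.99, a difference of -2.29, whereas the other probe, with 7 of 8 values repeated, gave 0.37. Hoxb4 (-0.86, adjusted p = 0.245) had a single high WT mouse at 3.30 and the other WT mice at 1.25 to 1.66. Its highest Tsk2 mouse was at 1.23, so the genotypes were barely apart. Hoxb9 (-1.30, adjusted p = 0.142) overlapped between genotypes, as did Hoxb1 (-0.05) and Hoxb13 (-0.28). In 1 fit over all 14 arrays, which shares the spread of the tighter fibroblast groups, 10 Hox genes passed in the skin comparison, 9 of them lower: Hoxb2, Hoxb3, Hoxb5, Hoxb6, Hoxb7, Hoxb8, Hoxb9, Hoxc13 and Hoxd10. In that fit Hoxd12, which has only repeated values, was the 1 gene that was higher, and 2814 genes in all passed in place of 568. Lists of other cells moved with the genotype in the same mice. Besides the hair genes, the fibroblast genes were at 1.49 to 2.14 in WT and 2.38 to 2.60 in Tsk2 skin. Of these 11 genes 10 differences were positive and 1 negative, and 2 passed as higher (Pdgfrb and Lum), 18.2% against 2.91% of all genes. A list of 10 skeletal muscle genes was at 4.13 to 4.72 in WT and 4.97 to 6.16 in Tsk2 skin (10 of 10 positive, 1 past the threshold). A mean over 8 endothelial genes also separated the genotypes, at 2.05 to 2.45 in WT and 2.60 to 3.07 in Tsk2 skin, with all 8 differences positive and 0 of 8 past the threshold. The mean of 7 melanocyte genes overlapped, at 2.76 to 3.81 and 1.81 to 2.998, with 0 of 7 past the threshold, 5 of 7 at an unadjusted p under 0.05 and a median difference of -0.91. The means of the keratinocyte, leukocyte, adipocyte and proliferation lists overlapped between the genotypes, with 0 genes past the threshold in each. All 9 leukocyte and all 8 adipocyte differences were positive, and of the keratinocyte ones 7 were positive and 5 negative. All 11 proliferation differences were negative, with a median of -0.65. The proliferation mean was -2.23 and -2.50 in Tsk2 replicates 2 and 4 and between -1.25 and -0.72 on the other skin arrays. The part of these lists in the Hoxb values was not tested.

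**Figure D4:**
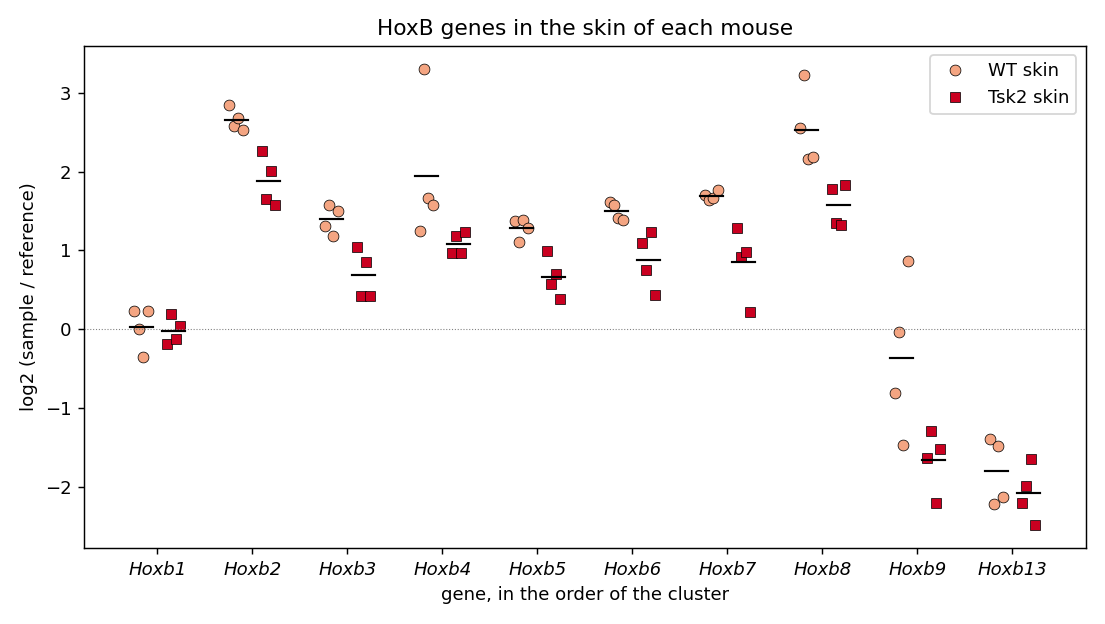
Log2 ratio to the reference of the 10 measured Hoxb genes in the skin of each mouse (circles, WT; squares, Tsk2), in the order of the cluster, with the group means as bars. Levels of different genes cannot be compared. From Hoxb2 to Hoxb8 all Tsk2 mice lie below all WT mice, and 0 of the 10 genes passed an adjusted p of 0.05.

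The other clusters showed no such common sign. In the Hoxa cluster 7 of 10 differences were positive and 0 had an unadjusted p under 0.05. Among them Hoxa10 was higher in Tsk2 skin by 0.97 (limma adjusted p = 0.546), with WT skin replicate 2 at exactly 0. The other WT mice, at -3.80, -4.58 and -2.57, lay below every Tsk2 mouse, at -2.44, -1.25, -2.05 and -1.35. Over 15 other settings the difference of Hoxa10 ranged from 0.35 to 1.88 and passed in 0 of them. In the Hoxc cluster Hoxc4 to Hoxc9 lay between 0.07 and 0.39. In the Hoxd cluster 6 of 9 differences were positive and 3 negative. An unadjusted limma p under 0.05 was found for 66.7% of these 9 genes, 70% of the Hoxb genes and 23.1% of all genes. Hoxd3 (0.53), Hoxd4 (0.74), Hoxd8 (0.90) and Hoxd9 (1.06) had higher means in Tsk2 skin with overlapping mice (limma adjusted p from 0.153 to 0.216). So did Hoxd12 (0.92, adjusted p = 0.152), which has only repeated values. Hoxd10, a gene of the lumbar region and hindlimb, was at 1.71, 3.44, 2.55 and 1.37 in WT skin and 0.52, 1.09, 0.51 and 1.08 in Tsk2 skin. It did not overlap but did not pass either (-1.47 ± 0.42 SE, adjusted p = 0.0931).

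In fibroblasts transfected with Tsk2 Col3a1 compared with WT Col3a1, 0 of 37 coding Hox genes passed by limma, against 0.0512% of all genes (10 genes, 0.0154% higher and 0.0358% lower). At an unadjusted p under 0.05 there were 8 of 37, 21.6%, against 11.2% of all genes. The arrays did not overlap for 6 Hox genes that were higher and 2 that were lower, 21.6% of the 37, against 20% of all genes (9.82% higher, 10.2% lower). The 3 genes of lowest p were Hoxc10, Hoxd12 and Hoxb13. Hoxc10, with the values given above, was higher by 0.54 ± 0.10 (SE, limma adjusted p = 0.22) on all 3 Tsk2 arrays. Hoxb13 was at -1.69, -1.71 and -1.68 with WT Col3a1 and at -2.19, -1.99 and -2.12 with Tsk2 Col3a1, a difference of -0.41 ± 0.09 (SE, adjusted p = 0.284). Hoxd12 was at 0.39, 0.89 and 0.67 with WT Col3a1 and at 0.00, 0.00 and -0.01 with Tsk2 Col3a1 (-0.65, adjusted p = 0.274). All 6 of its values, on 1 probe, were repeated ones and 2 of them were exactly 0. Such values are taken here as a sign of a dim probe, which was not checked by brightness.

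Hoxc13 (0.75 ± 0.48 SE, limma adjusted p = 0.578) overlapped between the transfections, and 7 of the 10 Hoxb genes had positive differences, the largest at 0.92 for Hoxb8 (adjusted p = 0.395). The other genes ranged from -0.37 (Hoxd13) to 0.66 (Hoxd1), and Hoxa4 was at 0.49 (adjusted p = 0.323). The hair genes averaged -0.17 to 0.33 on the fibroblast arrays, and 0 of 23 passed between the transfections. The 11 fibroblast genes averaged 1.03 to 1.12 with WT and 1.35 to 1.52 with Tsk2 Col3a1, and 0 of 11 passed. Of their differences 10 were positive and 1 negative. The arrays did not overlap for 63.6% of this list, against 20% of all genes.

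**Figure D5:**
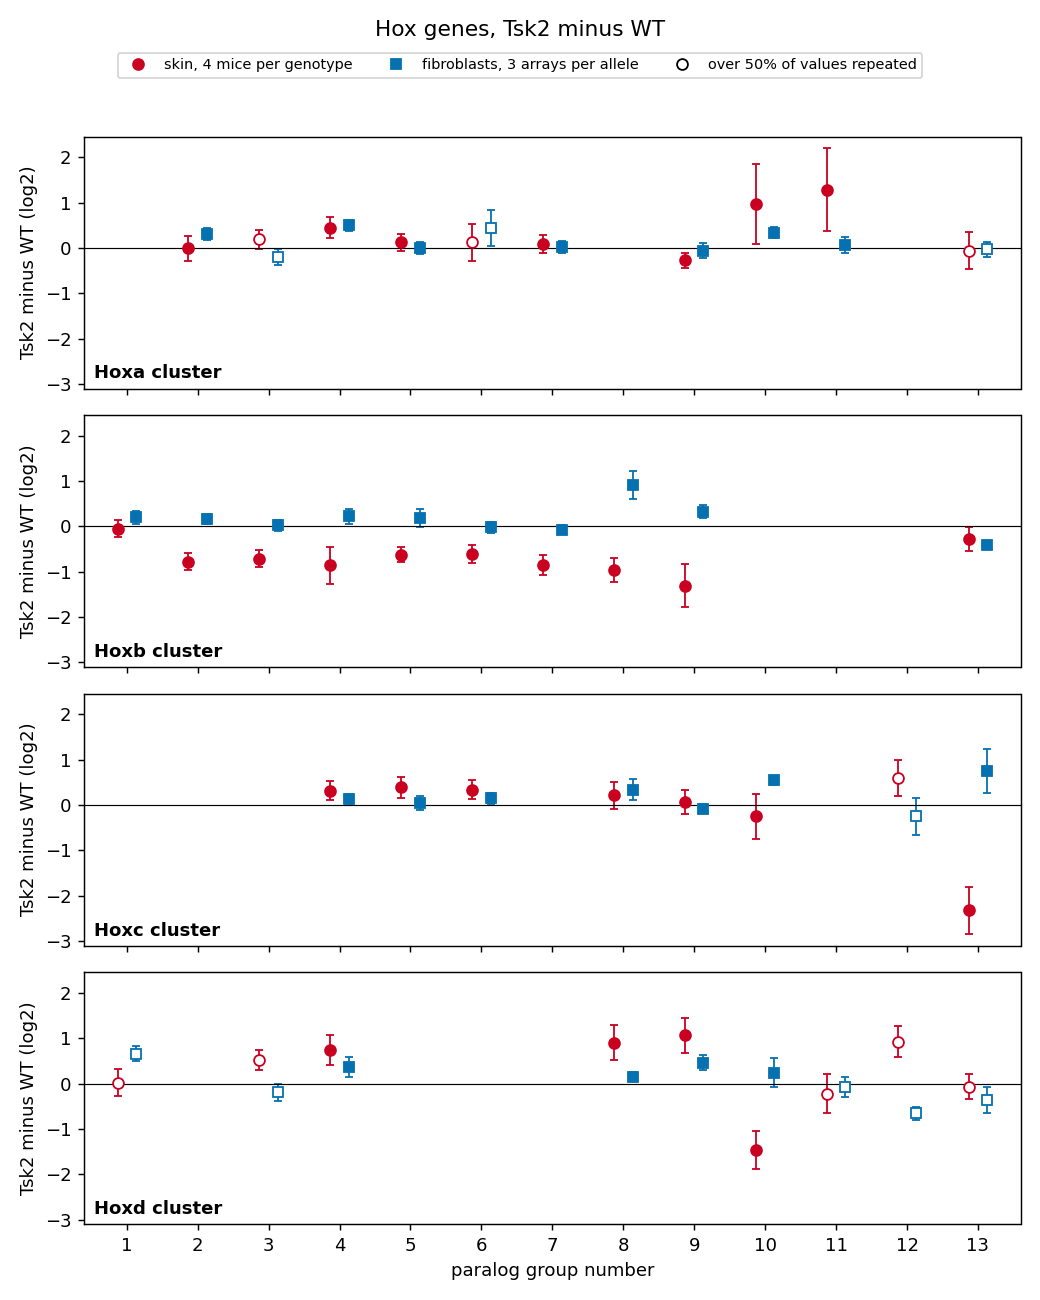
Tsk2 minus WT (log2) for each coding Hox gene in skin (circles, 4 mice per genotype) and in transfected fibroblasts (squares, 3 arrays per form of Col3a1), by cluster and paralog number, with ± 1 SE from limma; open symbols have over 50% of their values repeated. In skin the Hoxb genes lie at or below -0.05 and Hoxc13 at -2.32, and in fibroblasts 24 of the 37 genes lie above 0. None of the plotted differences passed an adjusted p of 0.05.

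The difference between the 2 effects, tested as 1 contrast over all 14 arrays, passed for 0 of 37 coding Hox genes against 1.4% of all genes, and 11 Hox genes, 29.7%, had an unadjusted p under 0.05 against 17.5% of all genes. The lowest p was that of Hoxb8, whose means over both probes were 2.55, 3.22, 2.16 and 2.18 in WT skin and 1.78, 1.35, 1.33 and 1.83 in Tsk2 skin. In fibroblasts they were 1.18, 0.65 and 0.59 with WT and 2.25, 1.17 and 1.77 with Tsk2 Col3a1. The effect in skin minus that in fibroblasts was -1.87 ± 0.42 (SE, limma adjusted p = 0.0517). Hoxb2 followed at -0.94 ± 0.23 (SE, adjusted p = 0.0684) and Hoxc13 at -3.08 ± 0.79 (SE, adjusted p = 0.0734). These 3 passed without WT skin replicate 4 or without Tsk2 skin replicate 1 (adjusted p from 0.0179 to 0.0456), so leaving out a single mouse changed the call. Of the Hoxb genes, 9 of 10 had a negative difference between the effects.

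Genes that work with or act on the Hox clusters were taken from lists of textbook members. Their counts stand beside the 54.1% of all genes that passed between skin and fibroblasts (29.2% higher, 24.9% lower; median -0.00) and the 2.91% that passed between Tsk2 and WT skin. Of 8 measured cofactors of the Pbx, Meis and Prep families, which bind DNA together with Hox proteins, 3 were higher and 2 lower in skin than in fibroblasts, 62.5% of the list and near the share of all genes, with a median difference of 0.18. Meis3 was at -1.46 (limma adjusted p = 5.74e-06), Pknox1 at 0.87 (adjusted p = 0.000117) and Pknox2 at 0.37 (adjusted p = 0.0213). Between Tsk2 and WT 0 of 8 passed, in skin (Meis2 0.87, adjusted p = 0.0542) and in fibroblasts (Pknox1 0.30, adjusted p = 0.341).

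Polycomb proteins hold Hox genes silent and trithorax proteins keep them active. Of 20 polycomb genes 9 were higher and 6 lower in skin, 75% against 54.1% of all genes, with a median difference of 0.24. Cbx7, a reader of the repressive mark, was at -2.87 ± 0.215 (SD, n = 3) in WT fibroblasts and -0.10 ± 0.169 (SD, n = 4) in WT skin. Its difference between skin and fibroblasts was 3.41 (limma adjusted p = 3.51e-10), followed by Cbx8 at 1.46 (adjusted p = 3.11e-07) and Jarid2 at 1.55 (adjusted p = 4.14e-07). Cbx7 also rose in Tsk2 skin by 1.03 ± 0.21 (SE, adjusted p = 0.0437), the 1 of 20 that passed there, with no overlap between the mice. Its effect differed between skin and fibroblasts by 1.28 (adjusted p = 0.0406). Of 12 trithorax and demethylase genes 5 were higher in skin and 1 lower, 50% and near the 54.1% of all genes, with a median difference of 0.38. Kdm6b, which removes the repressive mark, was higher at 2.17 (adjusted p = 1.29e-07), Kmt2a at 0.94 (adjusted p = 4.93e-06) and Kmt2c at 1.44 (adjusted p = 9.07e-06), and 0 of 12 passed between Tsk2 and WT in either.

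Retinoic acid activates the genes of low paralog number in the embryo. Of 16 measured genes of its pathway 10 were higher and 1 lower in skin, 68.8% against 54.1% of all genes, with a median difference of 0.58. Crabp1, a retinoic acid binding protein, was at 2.88 ± 0.162 (SD, n = 3) in WT fibroblasts and -2.43 ± 0.299 (SD, n = 4) in WT skin, a difference over all groups of -4.89 (limma adjusted p = 3.24e-11). Cyp26b1, which degrades retinoic acid, was higher in skin by 3.99 (adjusted p = 7.12e-10), and Dhrs3, which turns retinaldehyde back to retinol, by 1.59 (adjusted p = 7.38e-09). In Tsk2 skin Aldh1a3, an enzyme that makes retinoic acid, fell to 1.84 ± 0.359 (SD, n = 4) from 4.53 ± 0.784 (SD, n = 4), a change of -2.69 (adjusted p = 0.0229), the 1 of 16 that passed. Of its 28 probe values over all arrays 16 were repeated ones. Its effect differed between skin and fibroblasts by -2.38 (adjusted p = 0.0489).

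Of 30 other positional transcription factors 7 were higher and 13 lower in skin, 66.7% against 54.1% of all genes, with a median difference of -0.28. Lhx2, a factor of hair follicle stem cells, was higher by 7.91 (limma adjusted p = 1.3e-09). En1, a marker of the dorsal fibroblast lineage, was lower by 2.08 (difference -2.08, adjusted p = 3.69e-09), and Twist2, a mesenchymal factor, by 4.37 (difference -4.37, adjusted p = 8.96e-09). In Tsk2 skin Twist1 rose by 1.43 ± 0.25 (SE, adjusted p = 0.0299), the 1 of 30 that passed. Of 9 caudal and ParaHox genes, relatives of the Hox clusters, Gsx2 was lower in skin by 0.93 (difference -0.93, adjusted p = 0.0107) with most of its values repeated, and 0 of 9 passed between Tsk2 and WT. Of a list of 12 other noncoding transcripts of the Hox clusters, which does not hold Hoxd3os1, 1 was measured, Hottip, with 13 of 14 values repeated, and it passed in no comparison.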

How the data were processed

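The values are log ratios deposited by the authors as 1 table of all arrays, with Cy5 (sample) over Cy3 (reference) per the labels, taken here as log2 because their range is too wide for log10. What the sources used here do not give is the base, the feature extraction, the background correction and the normalization. Dyes were not swapped. Of 41174 probes, 32664 had 1 gene symbol, 45 had several and 8465 had none here; a gene's value is the mean of its probes. All 38 Hox members had a gene ID in the reference table. No column was left unmatched to a sample. All 4 mice per genotype in the labels were used, although the design text states a smaller number.

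Differences were tested with limma 3.58.1 under R 4.3.3 (lmFit and eBayes, two-sided, Benjamini-Hochberg over 19532 genes), the Tsk2 comparisons on their own arrays and the others on all 14. A gene entered with at least 2 values per fibroblast group and 3 per skin group. The members and gene lists were chosen with earlier results of these data known, and the grouping by cluster and paralog number gets no test.

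Values on every array are given for Hoxc13, for up to 8 rises and 8 falls past the threshold between skin and fibroblasts with no overlap, and for the 3 members of lowest p in each Tsk2 comparison. Hoxb8 probes, Hoxd10 and other members given with array values were added after their values were seen. Of other lists, up to 3 members of lowest p past the threshold are named, or up to 2 of lowest p where none passed.

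On simulated data over 19524 genes, a small part of the genes was given a change of 1 or 2. These changes were recovered in 63% and 94% of such genes for skin against fibroblasts and 35% and 79% for Tsk2 in skin. The shares were 49% and 77% for Tsk2 in fibroblasts, and 17% and 61% for the difference of the effects. In the data 54.1% of all genes passed between skin and fibroblasts, and many values were repeated ones. The simulation held neither feature, so its shares may not carry over. Alternatives covered values at 0, repeated values, probe choice, scaling, array weights, the fit and leaving out arrays.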

Additional observations from a re-analysis of the deposited data

Results flagged for a closer look

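In 5 of 76 groups of 4 skin arrays, 1 array stood apart from the others by the gap to its nearest neighbour over the range. For normally distributed values chance gives about 1 in 20. Hoxa6 in WT skin replicate 2 was at 1.46, and the others lay between -0.45 and -0.21. Hoxc5 in Tsk2 skin replicate 3 was at 0.72, below the others at 0.87 to 0.89, and Hoxc8 in the same mouse was at 1.13, above the others at 0.30 to 0.40. Hoxd11 was at -0.66 in WT skin replicate 1, with the others at exactly 0, and at -1.78 in Tsk2 skin replicate 3, with the others between 0 and 0.24. Nearly all values of Hoxa6 and all of Hoxd11 were repeated ones, so the rate of 1 in 20 does not apply to these 2 genes. The cause of these values was not tested.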

How the results depend on the processing

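Between skin and fibroblasts the count of 18 Hox genes ranged from 14 (Tsk2 groups only) to 22 (array weights), and within 16 to 20 when 1 array was left out. Hoxa2, Hoxa5, Hoxa7, Hoxa11, Hoxb9, Hoxc6, Hoxc8, Hoxc9 and Hoxc10 passed with the same sign in each of the 23 other settings. In skin the count of 0 Hox genes between Tsk2 and WT became 1 with values at exactly 0 taken as missing (Hoxc13), 2 without probes at repeated values and 2 with array weights (Hoxb2 and Hoxc13 in both), and 10 in 1 fit for all arrays. Leaving out 1 mouse gave 0 to 2, with 2 without Tsk2 replicate 1 (Hoxb2 and Hoxc13) and 2 without WT replicate 4 (Hoxc13 and Hoxd10). In fibroblasts it was 0 in every setting run, leaving out 1 array included. With the replicate block it was 0 as well. After each gene's group mean was subtracted, the correlations of like-numbered arrays were 0.019, 0.008 and 0.017. Those of the other pairs lay between -0.025 and 0.007. With 3 arrays per group, such values cannot settle whether the numbers pair the samples. For the difference of the effects the count of 0 became 1 without probes at repeated values, 1 with quantile normalization (Hoxb8 in both), 4 with array weights (Hoxb2, Hoxb8 and Hoxc13 lower, Hoxd12 higher), and 0 to 4 when 1 array was left out. The cause of these shifts was not tested. The largest shift of the median of all genes by a setting was -0.08, under quantile normalization.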

Other observations

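A probe that the annotation assigns to both Hoxb3os and Hoxb2 was used for neither gene. It lay between 1.29 and 2.51 on the skin arrays and between -0.86 and -0.14 on the fibroblast arrays. Hoxaas3, a noncoding transcript of the Hoxa cluster whose symbol falls outside the rule for the members, lay between -0.14 and 1.33 in skin and between -2.35 and -0.94 in fibroblasts. For both, every skin array was above every fibroblast array, as it was for Hoxa2, Hoxa5 and Hoxa7.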
